A study of Homo sapiens with 4 samples.

Results

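The cytosolic ribosomal proteins are the protein part of the ribosomes that translate nuclear-encoded mRNAs. Their transcripts were picked out by gene symbol (RPL or RPS followed by a number, RPLP0 to RPLP2, or RPSA) among the probe sets that name exactly 1 gene, and each gene is represented by whichever of its probe sets had the highest average across the 4 arrays. This gave 65 of the 18417 genes with a value, 43 of the large and 22 of the small subunit. Of the 65 members, 8 are paralogues named as "like" copies of another member: RPL3L, RPL7L1, RPL10L, RPL22L1, RPL26L1, RPL36AL, RPL39L and RPS27L. Another 20 genes that fit the symbol rule, among them RPLP0, RPL36A, RPL39 and RPSA, have no probe set that names them alone and were not analysed here.

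The samples came from HT1080, a human fibrosarcoma line, kept in 0.4% fetal calf serum from at least 24 h before the start. Hypoxic cells stood at 1% oxygen for 36 h and control cells at 21% oxygen. Total RNA and ER-RNA were each hybridised to 1 Affymetrix Human Gene ST array per condition, with RNA pooled from 5 independent experiments on each array. ER-RNA is the RNA extracted from a biochemically isolated endoplasmic reticulum fraction. The study's methods state a cycloheximide pre-treatment of the cells for such fractions and name none for total RNA. A difference between the fractions cannot be told apart from this step. Without replicates the variation among those experiments is unknown, so that neither a p-value nor an error can be attached to any value, and precision is limited by having 1 array per group.

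All values are on the log2 scale after RMA normalization by the authors, and a difference of 1 between arrays stands for a factor of 2. Array medians over 33297 probe sets were 7.49 in hypoxia and 7.41 in control for total RNA, against 6.34 and 6.25 for ER-RNA in the same order of conditions. Of 6 mesenchymal markers, VIM, FN1, CD44, MMP14 and TGFBI lay above the array median on all 4 arrays and THY1 on none, and of 7 measured epithelial, blood and endothelial markers only PECAM1 did so, on the 2 ER-RNA arrays. A list of 15 target genes of the hypoxia-inducible factors (HIF) rose in 15 of 15 cases in total RNA and in 13 of 15 in ER-RNA, by the call rule given below, which 2.32% and 1.12% of expressed genes passed upwards. The label of the ER fraction was set against 28 secreted and membrane proteins and chaperones of the secretory pathway: their ER-RNA minus total RNA had a median of -1.89 in hypoxia and -2.09 in control, against -1.09 and -1.11 over all genes, and after quantile normalization of the 4 arrays -1.12 and -1.40, against 0.093 and 0.072. Transcripts of this class thus lay below the median gene in ER-RNA over total RNA under both scalings, and ER-RNA values are described as those of the isolated fraction, not as a measure of binding to the ER.

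A ribosome is built from a small subunit, which holds the mRNA and decodes it, and a large subunit, which joins amino acids and releases the chain through an exit tunnel. Vertebrate mRNAs for ribosomal proteins characteristically start with a 5′ terminal oligopyrimidine (TOP) tract, a cytosine followed by an unbroken run of pyrimidines. Through this tract their translation is held back together when the mTOR kinase is inhibited, with LARP1 as a cap-binding repressor, and hypoxia is among the conditions known to lower mTOR activity. Control of this kind acts on ribosome loading and can leave the amount of mRNA as it was.

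Start sites show how far the members share this feature. RefSeq start windows (GRCh38.p14; 15 bases before the annotated start and 10 from it on, read on the strand of the gene) were found for 54 of the 65 members. A tract was counted where an unbroken run of at least 6 C or T could be read onwards from a C within 5 bases of the annotated start. Pyrimidines before that C were not counted, so a marked stretch can begin inside a longer run. It was present in 39 of 54 members (72.2%), against 3017 of 27305 genes in the whole table (11%) and 4 of 66 mitochondrial ribosomal proteins (6.06%). The share was 68.6% in the large subunit (24 of 35) and 78.9% in the small subunit (15 of 19). Without the paralogues it was 77.1% (37 of 48), and among the paralogues 2 of 6 held a tract. A match describes these letters only and is no proof of a start in these cells. The windows below belong to the members furthest from control in total RNA and to their counterparts where a window was found. RPL7A and RPS6 are shown as further members with a tract. RPL13, the highest member in ER-RNA, and RPS29, which came next in total RNA, are not shown and held no tract. Tracts are in capitals where there is one.

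RPL22L1 (chr3:170870186-170870210, minus strand): cgcggccgtagCTTCCTCTCTgctc
RPL22 (chr1:6199586-6199610, minus strand): tagttcgctcaCCTCCCTTTCTaac
RPL26L1 (chr5:172958714-172958738, plus strand): agtcttccaggggtcggcgaacgaa
RPL26 (chr17:8383184-8383208, minus strand): aagcagcgtgtagttCTCTTCCCTT
RPS27L (chr15:63157468-63157492, minus strand): aagttgatgccgagcgcagatcgct
RPS27 (chr1:153990747-153990771, plus strand): atttccgctttcgCTCCTTTCCggc
RPL7L1 (chr6:42879601-42879625, plus strand): cggaagtgcggcgccgtagctagga
RPS24 (chr10:78033848-78033872, plus strand): cggcgaatcgtggttCTCTTTTCCT
RPL7A (chr9:133348203-133348227, plus strand): ccacaattccCTTTCCTTTCTCTCT
RPS6 (chr9:19380227-19380251, minus strand): aagcggaagttggCCCTCTTTTCCg

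In this group RPL26 and RPS27 carry a tract and their paralogues RPL26L1 and RPS27L do not, while RPL22 and RPL22L1 both do. The 39 members with a tract changed in hypoxia by a median of -0.013 (log2, hypoxia over control) in total RNA and by 0.085 in ER-RNA, and the 15 members without one by 0.087 and 0.093.

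Most of these transcripts had nearly the same value in hypoxia as in control. The 65 members had a median log2 fold change (hypoxia over control) of 0.043 for total RNA, with quartiles of -0.057 and 0.13, against a median of 0.026 and quartiles of -0.24 and 0.21 over all genes. In ER-RNA it was 0.085, with quartiles of -0.011 and 0.15, against 0.058 with quartiles of -0.26 and 0.27 over all genes. The sign of these small medians depends on the scaling. With the changes of each pair of arrays centred on their median over all probe sets, they came to -0.011 for total RNA and -0.0034 for ER-RNA. These values are relative to the rest of each array, so a change in the amount of RNA per cell would not show in them. An absolute log2 fold change under 0.2 was found for 47 of 65 members (72.3%) in total RNA, against 46.8% of all genes, and for 48 of 65 (73.8%) in ER-RNA, against 38.4% of all genes.

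**Figure D1:**
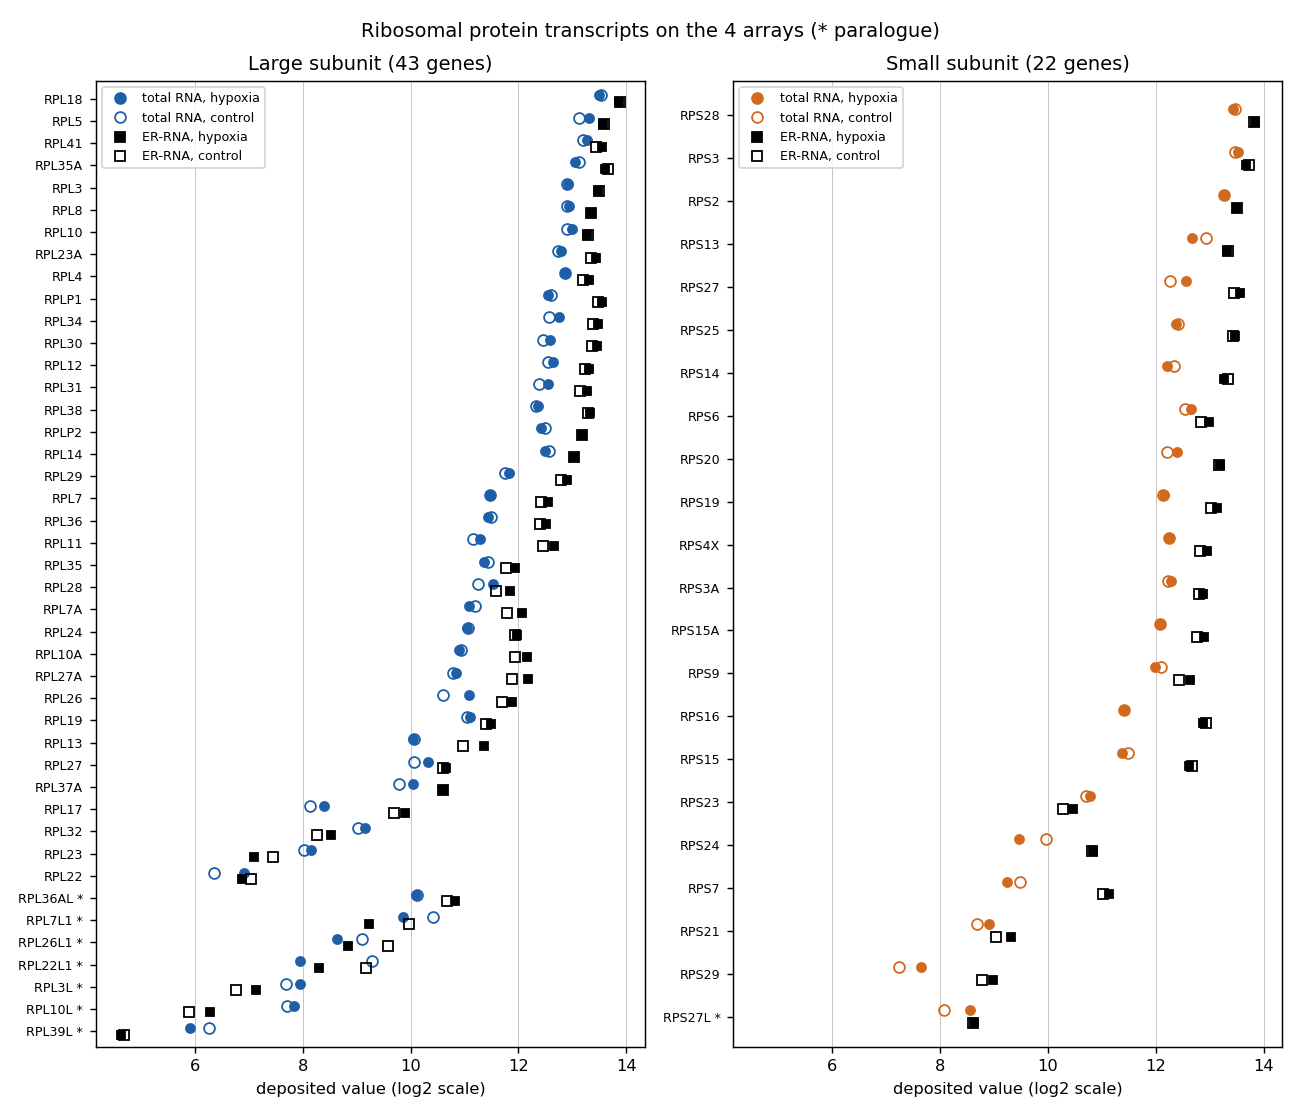
Deposited log2 values (horizontal axis) of the 43 large-subunit and 22 small-subunit genes on the 4 arrays, with hypoxia as filled and control as open symbols, total RNA as circles and ER-RNA as squares; each point is 1 array. For most genes the hypoxia and control symbols of a fraction overlap or nearly so, while RPL22L1, RPL7L1 and RPL26L1 among the paralogues stand apart in both fractions.

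A change was called by the thresholds in the study's methods, a fold change over 1.4 and a z-score over 3. The methods fit the SD model to treatment and control groups separately; with 1 array per group the SD was instead read here from a curve of the SD of each hypoxia and control pair against its mean, so the calls need not be those of the study. It was applied to probe sets with at least 1 array of the pair above its 50% quantile, which 63 of the 65 members passed in total RNA and 63 in ER-RNA. By this rule 0 members rose and 1 fell in total RNA, against 2.32% of 11530 expressed genes that rose and 7.45% that fell. In ER-RNA 0 members rose and 0 fell, against 1.12% and 8.25% of 11876 expressed genes. No z-score is a test here, since it is derived from 1 array per condition.

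Narrow spread was found above all in members with a strong signal. Among the 34 members with a mean of 12 or more over the 4 arrays, 94.1% for total RNA and 97.1% for ER-RNA lay within 0.2 of control, against 44.5% and 31.1% of the 119 other genes in that range. As deposited, the 18 members with a mean of 10 to 12 were all above control in ER-RNA, with a median of 0.15. In total RNA 9 of them were above it. Of the 1064 other genes in that range, 33.1% were above control in ER-RNA and 30.8% in total RNA. The count in ER-RNA depends on the scaling, since the lowest of these members, RPL37A, was at 0.0073. In the 8 members of 8 to 10 the changes in total RNA spanned -1.33 to 0.48. Across the 65 members the mean value and the absolute change were correlated with r = -0.53 (Pearson) for total RNA and -0.51 for ER-RNA, a description over genes that share arrays. Signal differs between probe sets for reasons other than transcript number, so these ranges are classes of signal and not of mRNA abundance.

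The large and the small subunit differed little. Large-subunit members had a median log2 fold change of 0.051 in total RNA, against 0.0086 for small-subunit members, and of 0.085 in ER-RNA, against 0.065. The difference of 0.042 in total RNA and of 0.020 in ER-RNA is small beside the quartiles within either subunit, which were -0.045 and 0.13 for the large and -0.094 and 0.094 for the small subunit in total RNA. With the probe set of the lowest mean in place of the highest, the difference turned to -0.035 for total RNA and -0.034 for ER-RNA, so no direction between the subunits is given. The large subunit spanned -1.33 to 0.56 for total RNA and -0.87 to 0.38 for ER-RNA, against -0.50 to 0.48 and -0.080 to 0.29 in the small subunit. Without the paralogues the large subunit spanned -0.10 to 0.56 in total RNA, against -0.50 to 0.41 for the small subunit, and -0.34 to 0.38 in ER-RNA, against -0.080 to 0.29. Which subunit spread more thus depended on the paralogues in total RNA.

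Within the large subunit, the stalk recruits and activates the GTPase translation factors. By the probe sets used, its proteins RPLP1 and RPLP2 and its base protein RPL12 stayed within 0.1 of control on either pair of arrays. Among the 4 probe sets of RPL12 the highest log2 fold changes were 0.15 (total RNA) and 0.24 (ER-RNA), and the lowest -0.0925 and 0.085. RPLP1 had 12.55 in hypoxia and 12.61 in control in total RNA, and 13.55 and 13.47 in ER-RNA. RPLP2 had 12.42 in hypoxia and 12.50 in control in total RNA, and 13.18 and 13.17 in ER-RNA. The order of the conditions was thus not the same in both fractions for these stalk proteins.

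RPL5 and RPL11 bind the 5S rRNA and deliver it to the nascent large subunit. RPL5 showed 13.31 in hypoxia and 13.13 in control in total RNA, with 13.57 and 13.60 in ER-RNA. RPL11 showed 11.29 in hypoxia and 11.16 in control in total RNA, with 12.66 and 12.45 in ER-RNA. By the probe sets used, both were a little higher in hypoxia in total RNA, and in ER-RNA this held for RPL11. The 3 probe sets of RPL5 differed in sign in each fraction, so its direction rests on the one used. Their log2 fold changes spanned -0.0225 to 0.18 (total RNA) and -0.052 to 0.027 (ER-RNA).

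The rim of the exit tunnel, where chaperones and the signal recognition particle meet the nascent chain, is lined by RPL17, RPL19, RPL22, RPL23A, RPL26, RPL31 and RPL35. Of these 7 genes, 6 were above control on the total RNA arrays and 6 on the ER-RNA arrays. Over all genes these shares were 53.1% and 55.3%, and over the 65 members 61.5% and 72.3%. The 7 genes had medians of 0.17 and 0.14, and none was called. RPL22, the highest of them in total RNA, was below the expression filter there. RPL26 had 11.09 in hypoxia and 10.60 in control in total RNA, and 11.88 and 11.69 in ER-RNA. Its fold change of 1.41 in total RNA had a z-score of 1.80, so it was not called. RPL19, which bridges to the small subunit, had 11.10 in hypoxia and 11.05 in control in total RNA, and 11.49 and 11.40 in ER-RNA. It was marginally higher in hypoxia in both.

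RPL7A, a large-subunit protein with a kink-turn RNA-binding fold, was lower in hypoxia in total RNA and higher in ER-RNA. It had 11.09 in hypoxia and 11.19 in control in total RNA, and 12.07 and 11.79 in ER-RNA. RPL13 had the largest log2 fold change among expressed members in ER-RNA, 0.38, with 11.35 in hypoxia and 10.97 in control. In total RNA it had 10.04 in hypoxia and 10.06 in control, so that its conditions lay together there by the probe set used. The 3 probe sets of RPL13 ran from -0.27 to 0.025 in total RNA. RPL27A, another large-subunit protein, had 12.18 in hypoxia and 11.88 in control in ER-RNA, and 10.84 and 10.79 in total RNA. Its 3 probe sets did not run the same way, with log2 fold changes from -0.29 to 0.29 in ER-RNA and from -0.53 to 0.19 in total RNA.

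RPL23, found beside the factor-binding region of the large subunit, was the non-paralogue with the lowest change in ER-RNA. It had 7.10 in hypoxia and 7.44 in control in ER-RNA, a log2 fold change of -0.34, while total RNA gave 8.14 and 8.03. The conditions were thus in opposite order in the 2 fractions. RPL41, which codes for the smallest protein of the ribosome, had 13.28 in hypoxia and 13.19 in control in total RNA, and 13.55 and 13.43 in ER-RNA. Of its 3 probe sets, 2 hold the same 4 values. The 3 differed in sign in each fraction, with log2 fold changes spanning -0.0765 to 0.089 (total RNA) and -0.16 to 0.12 (ER-RNA).

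RPS3 and RPS2 sit at the mRNA entry channel of the small subunit and RPS15, RPS16 and RPS23 near the decoding and peptidyl sites. By the probe sets used, all 5 stayed within 0.2 of control in both fractions. The second RPS15 probe set had a log2 fold change of 0.26 in ER-RNA. RPS3, which also works in DNA repair, had 13.53 in hypoxia and 13.48 in control in total RNA, and 13.68 and 13.72 in ER-RNA. RPS6, the substrate of the S6 kinases downstream of mTOR, had 12.65 in hypoxia and 12.54 in control in total RNA, and 12.98 and 12.84 in ER-RNA. RPS6 was the higher in hypoxia in each fraction and RPS3 in total RNA alone.

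RPS24, required for processing of the small-subunit rRNA, had the lowest log2 fold change of the small subunit in total RNA, -0.50. It had 9.47 in hypoxia and 9.96 in control in total RNA, but 10.84 and 10.81 in ER-RNA. Its change in ER-RNA exceeded that in total RNA by 0.52, the largest such difference among the members. RPS29, a zinc-binding protein of the small-subunit head, had 7.64 in hypoxia and 7.24 in control in total RNA, and 8.98 and 8.77 in ER-RNA. RPS21 had 9.32 in hypoxia and 9.03 in control in ER-RNA, with 8.91 and 8.69 in total RNA. Both were higher in hypoxia on either pair of arrays, with z-scores of 1.42 and 0.64 for RPS29 and of 0.86 and 0.89 for RPS21 in total RNA and ER-RNA, far from the threshold.

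The paralogues spanned wider changes than the other members, but all except RPL36AL had a mean under 10. Their log2 fold changes spanned -1.33 to 0.48 in total RNA and -0.87 to 0.38 in ER-RNA, and 2 of 8 lay within 0.2 of control in total RNA, against 45 of the 57 other members. In ER-RNA these counts were 3 of 8 and 45 of 57. Of the non-paralogues with a mean under 10, RPL17, RPL22, RPS21 and RPS29 lay beyond 0.2 in total RNA. RPL23 and RPL32 lay within it, and in ER-RNA RPL22 alone did. Being a paralogue and having a weak signal thus cannot be told apart here.

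RPL22L1, a paralogue that can take the place of RPL22 in the ribosome, was the one member called. It had 7.94 in hypoxia and 9.28 in control in total RNA, and fell to 0.397 of the control level with a z-score of -5.24. In ER-RNA it had 8.29 in hypoxia and 9.17 in control, 0.546 of the control level, where the z-score of -2.76 did not reach the threshold. The hypoxia array was the lower one in both fractions. The call in total RNA was lost with the stricter requirement of 1 array above its 75% quantile, where the z-score came to -2.78. RPL22 itself had 6.91 in hypoxia and 6.36 in control in total RNA, below the expression filter on both arrays, and 6.87 and 7.03 in ER-RNA.

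RPL26L1 was lower in hypoxia than in control on both pairs of arrays, with 8.63 against 9.09 in total RNA and 8.83 against 9.58 in ER-RNA. Its other probe set gave log2 fold changes of -0.074 and -0.70, so the lower value in total RNA rests on the probe set used. Its counterpart RPL26 was higher in hypoxia in both, as given above. RPL7L1 was likewise lower in hypoxia, with 9.86 against 10.41 in total RNA and 9.23 against 9.97 in ER-RNA, and both of its probe sets ran this way. RPL7 had 11.48 in hypoxia and 11.47 in control in total RNA, and 12.55 and 12.43 in ER-RNA. In ER-RNA RPL7L1 and RPL26L1 stood at 0.597 and 0.594 of control, past the fold threshold, but their z-scores of -2.29 and -2.32 were not.

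RPS27L, known as a p53 target, had 8.55 in hypoxia and 8.07 in control in total RNA, and 8.63 and 8.61 in ER-RNA. It was thus higher in hypoxia by 0.48 in total RNA (z-score 2.04, not called), with no comparable difference in ER-RNA. RPS27 had 12.56 in hypoxia and 12.25 in control in total RNA, and 13.56 and 13.44 in ER-RNA, so that both genes were higher in hypoxia in total RNA. For RPS27 in total RNA the second probe set gave 0.014 (log2 fold change), against 0.31 for the one used here.

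RPL3L and RPL10L are paralogues known mainly from striated muscle and from testis. RPL3L had 7.95 in hypoxia and 7.69 in control in total RNA, and 7.13 and 6.75 in ER-RNA. RPL10L had 7.85 in hypoxia and 7.71 in control in total RNA, and 6.27 and 5.90 in ER-RNA, the ER-RNA values below the expression filter. Their counterparts RPL3 and RPL10 stayed within 0.1 of control. In total RNA RPL3 had 12.91 in hypoxia and 12.91 in control, and RPL10 had 13.00 and 12.91. In ER-RNA RPL3 had 13.47 in hypoxia and 13.50 in control, and RPL10 had 13.26 and 13.28. Both counterparts code for core proteins of the large subunit. RPL36AL had 10.10 in hypoxia and 10.12 in control in total RNA, and 10.82 and 10.67 in ER-RNA. RPL39L, with 5.91 and 6.25 in total RNA and 4.62 and 4.67 in ER-RNA for hypoxia and control, was below the filter in both fractions.

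**Figure D2:**
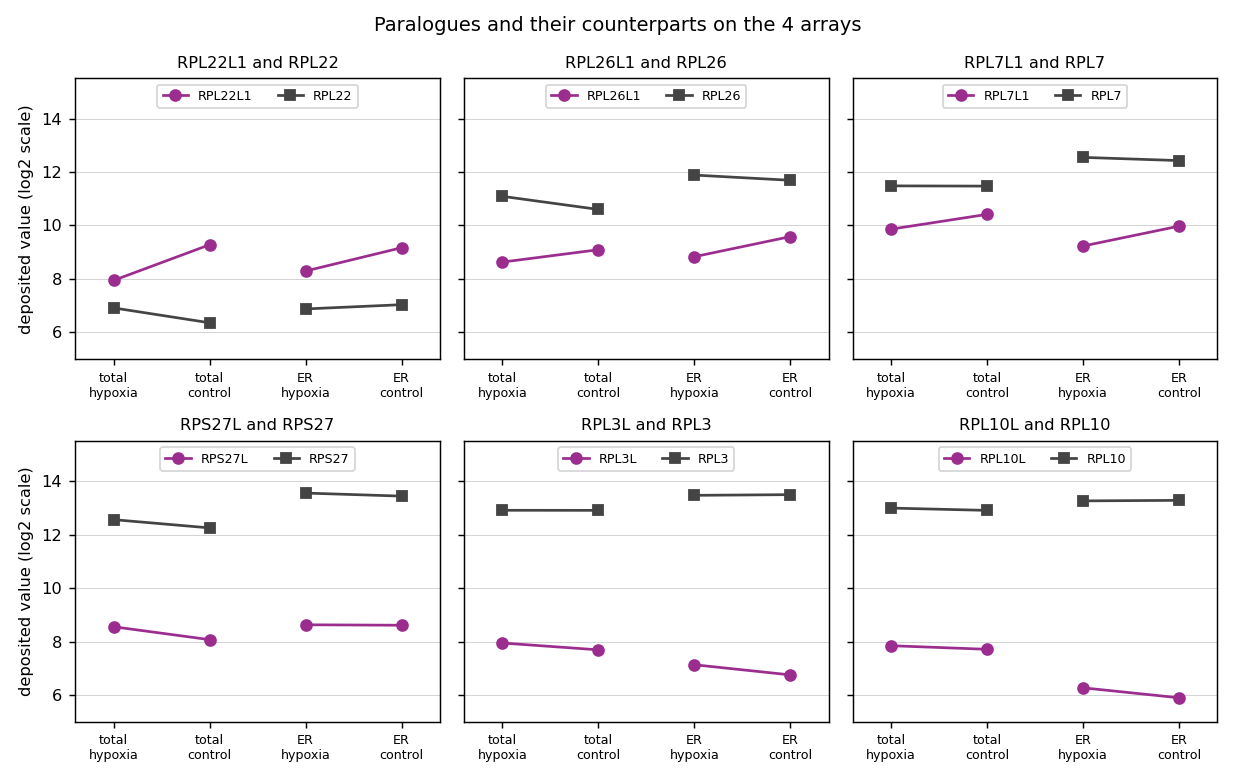
Deposited log2 values (vertical axis) of 6 paralogues (purple circles) and their counterparts (grey squares) on the 4 arrays, each point 1 array, with lines joining hypoxia and control of a fraction. RPL22L1, RPL26L1 and RPL7L1 are lower in hypoxia in both fractions, with drops from 7.94 against 9.28 for RPL22L1 to 8.63 against 9.09 for RPL26L1, both in total RNA; heights of different genes come from different probe sets and are not compared.

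Probe sets of one gene give a measure of how far these small differences can be read. In the 23 members with several probe sets, the log2 fold changes of a gene ranged over a median of 0.18 for total RNA and 0.070 for ER-RNA, up to 0.72 and 0.58 in RPL27A. They differed in sign in 12 of the 23 in total RNA and in 4 in ER-RNA. Ribosomal protein genes have many processed pseudogenes of near-identical sequence, and how far probe sets that name a member also take up signal from such copies, or lie at one of them, was not tested. The 19 ribosomal pseudogenes with a probe set of their own had median log2 fold changes of 0.13 (total RNA) and 0.32 (ER-RNA), with 0 calls, and their ER-RNA minus total RNA had medians of -0.70 in hypoxia and -0.88 in control.

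Changes in the 2 fractions were alike for some members only. Of the 65 members, 32 were above control in both fractions, 10 below it in both, 15 below in total RNA and above in ER-RNA, and 8 the other way round. In total RNA 40 members (61.5%) were above control, against 53.1% of all genes, and in ER-RNA 47 (72.3%), against 55.3%. Across all members the log2 fold changes in total RNA and ER-RNA had a Pearson's r of 0.62 and a Spearman's rho of 0.34, but over the 57 members other than paralogues r was 0.098. The change in ER-RNA minus the change in total RNA had a median of 0.044 and was above 0 in 42 of 65 members (64.6%), against 51.9% of all genes. Besides RPS24, it was highest in RPL22L1 (0.46) and RPL13 (0.41), and among members that passed the filter in both fractions it was lowest in RPS27L (-0.47), RPL23 (-0.46) and RPL26 (-0.30). No member was past 1.2-fold in opposite directions, against 1.16% of all genes.

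**Figure D3:**
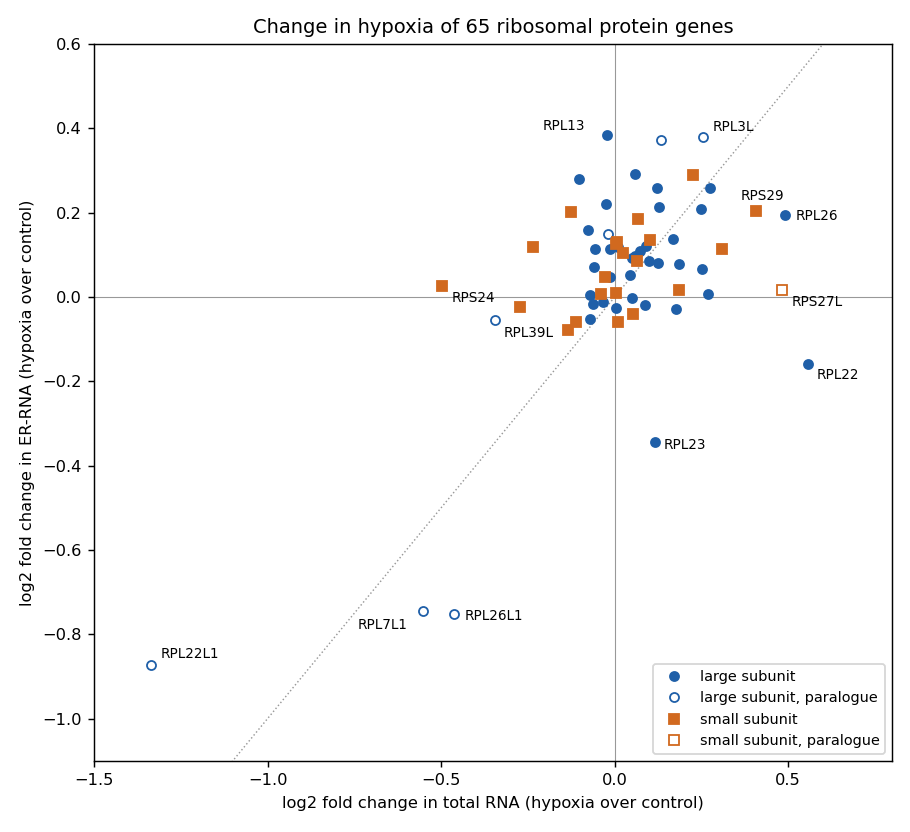
Log2 fold change (hypoxia over control) in ER-RNA (vertical axis) against total RNA (horizontal axis) for the 65 genes, each point 1 gene, with paralogues as open symbols and a dotted line where the 2 changes are equal. Most points lie near 0 on both axes, and RPL22L1 (-1.33 and -0.87), RPL7L1 and RPL26L1 lie apart at the lower left.

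Relative to other genes, these transcripts had high values in ER-RNA over total RNA in either condition. ER-RNA minus total RNA had a median of 0.65 in hypoxia and 0.59 in control over the 65 members, against -1.09 and -1.11 over all genes, an excess over all genes of 1.74 and 1.70. Of the 65 members, 57 had a higher value in ER-RNA than in total RNA in hypoxia, against 6.96% of all genes, and 57 in control, against 8.04%. In both conditions together it was 56 members (86.2%), against 5.75% of all genes. These counts rest on 1 probe set per gene, the one with the highest mean. Some genes had probe sets on both sides of 0 in hypoxia, as RPL5 from -2.02 to 0.455 and RPL27A from -1.37 to 1.33. With the probe set of the lowest mean the excess over all genes was 1.65 in hypoxia and 1.66 in control. The fractions do not share a scale, and with quantile normalization of the 4 arrays the excess was 0.83 in hypoxia and 0.82 in control. The higher value was then in ER-RNA for 64 members in hypoxia, against 55.8% of all genes, and for 63 in control, against 54.6%. Above the 95% quantile of all genes lay 55 members in each condition as deposited, but 21 in hypoxia and 23 in control after quantile normalization.

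Beside genes of similar signal the excess held for members with a mean of 8 or more, while the 5 weakest were close to other genes of their range. The 34 members with a mean of 12 or more had medians of 0.66 in hypoxia and 0.59 in control, against -0.098 and -0.059 for the 119 other genes in that range. After quantile normalization these members were at 0.75 and 0.73, and the other genes at -0.016 and -0.065. As deposited, the members of 10 to 12 had 0.95 in hypoxia and 0.86 in control, against -0.48 and -0.46 for other genes there, and those of 8 to 10 had 0.28 and 0.42, against -1.07 and -1.001. In the 5 members with a mean under 8 the medians were -1.05 in hypoxia and -0.94 in control, against -1.12 and -1.17. Mitochondrial ribosomal proteins had 0.046 in hypoxia and 0.15 in control as deposited, but 0.93 and 1.03 after quantile normalization, where the members had 0.92 and 0.89. The members' distance from the mitochondrial genes thus depended on the scaling. The list of 28 cytosolic proteins stood at -0.23 in hypoxia and -0.096 in control as deposited. A list of 18 other genes with TOP mRNAs, which includes FAU, a ribosomal protein gene outside the symbol rule, stood at 0.28 and 0.13. Its excess over all genes was 1.37 in hypoxia and 1.24 in control, so a high value was not particular to the members.

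Among the members, RPS7, needed for maturation of the small-subunit rRNA, had the largest excess of ER-RNA over total RNA in hypoxia. In hypoxia its ER-RNA value was 11.14 against 9.25 for total RNA, and in control 11.02 against 9.48, differences of 1.89 and 1.54. RPL17 followed with differences of 1.51 in hypoxia and 1.55 in control, and RPS16 with 1.45 and 1.52. These 3 were chosen for their size after the values were seen, as were the following. RPL32 was lower in ER-RNA in both conditions, at 8.53 against 9.15 for total RNA in hypoxia and 8.27 against 9.03 in control. RPS23, which helps to keep decoding accurate, also was, with differences of -0.31 and -0.43, and so was RPL23, with -1.05 and -0.59. By subunit the medians were 0.57 for the large and 0.75 for the small subunit in hypoxia, and 0.59 and 0.64 in control. Of the paralogues 3 of 8 were higher in ER-RNA in both conditions, against 53 of the 57 other members.

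**Figure D4:**
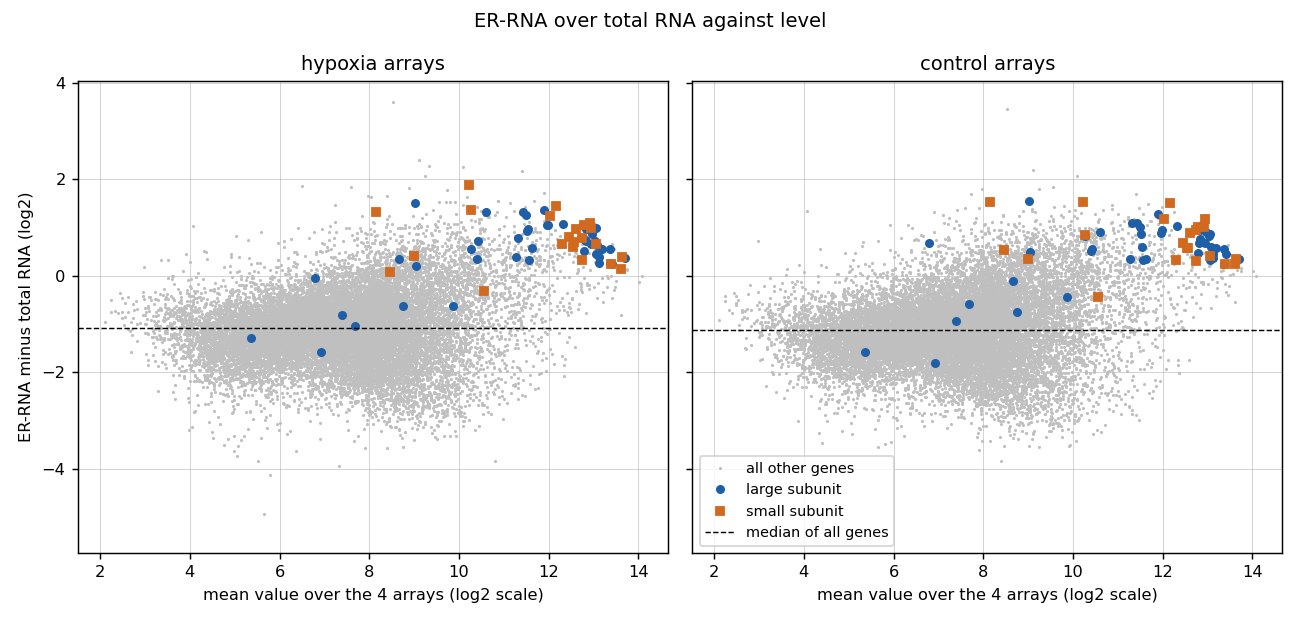
ER-RNA minus total RNA in log2 units (vertical axis) against the mean over the 4 arrays (horizontal axis), in hypoxia at the left and control at the right, with large-subunit genes in blue, small-subunit genes in orange and all other genes in grey. The members lie above the dashed median of all genes (-1.09 in hypoxia and -1.11 in control) in 63 of 65 cases in each panel.

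Other genes of the ribosome and its making were set beside the members. FAU, whose product includes a small-subunit protein but whose symbol falls outside the rule, had 9.37 in hypoxia and 9.61 in control in total RNA, and 9.73 and 10.03 in ER-RNA. It was not called. Other genes with TOP mRNAs formed a list of 18, mostly elongation and initiation factors but with FAU among them. They gave median log2 fold changes of -0.068 (total RNA) and 0.044 (ER-RNA), with 0 calls in either fraction. In this list PABPC1, the poly(A)-binding protein, had the highest change in ER-RNA (0.24) and EIF3K, a subunit of an initiation factor, the lowest (-0.48).

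Most ribosome biogenesis factors were lower in hypoxia, 32 of 33 in total RNA, against 46.8% of all genes, and 31 of 33 in ER-RNA, against 43.3%. Of these 33 genes, 10 fell and 0 rose in total RNA and 13 fell and 0 rose in ER-RNA, 7 of them in both, and the list medians were -0.59 and -0.78. Over all expressed genes 7.45% fell and 2.32% rose in total RNA, and 8.25% fell and 1.12% rose in ER-RNA, shares that also stand as background to the lists that follow. UTP15, a factor of the small-subunit processome, had 6.66 in hypoxia and 8.80 in control in total RNA, and 5.37 and 7.89 in ER-RNA. LTV1, an assembly factor of the small subunit, fell by 1.46 in total RNA and by 1.77 in ER-RNA on the log2 scale, and WDR12, a large-subunit factor, fell by 1.45 and by 1.67. Of 10 genes of RNA polymerase I and its factors, 2 fell and 0 rose in each fraction, with medians of -0.34 and -0.29. TAF1B and TAF1C had values above control in total RNA and TAF1D in ER-RNA. POLR1B, a core subunit, was called in both, with 9.30 in hypoxia and 10.21 in control in total RNA and 7.69 and 8.72 in ER-RNA.

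Mitochondrial ribosomal proteins, which are nuclear-encoded but serve the ribosome inside mitochondria, were on the whole further from control than the cytosolic ones. Among the 73 measured, 13 fell and 0 rose in total RNA and 19 fell and 0 rose in ER-RNA, with medians of -0.46 and -0.62. MRPL47 had 9.32 in hypoxia and 10.25 in control in total RNA, and 9.80 and 11.06 in ER-RNA. For total RNA 14 of the 73 lay within 0.2 of control, and for ER-RNA 9. Of 12 regulators of TOP mRNA translation, 11 of them expressed, 1 fell in each fraction, a share near that of all genes. In both it was MTOR, the kinase itself, with 8.73 in hypoxia and 9.83 in control in total RNA and 6.55 and 7.28 in ER-RNA. LARP1 had 10.72 in hypoxia and 11.29 in control in total RNA, and 8.31 and 8.74 in ER-RNA, and was not called.

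**Figure D5:**
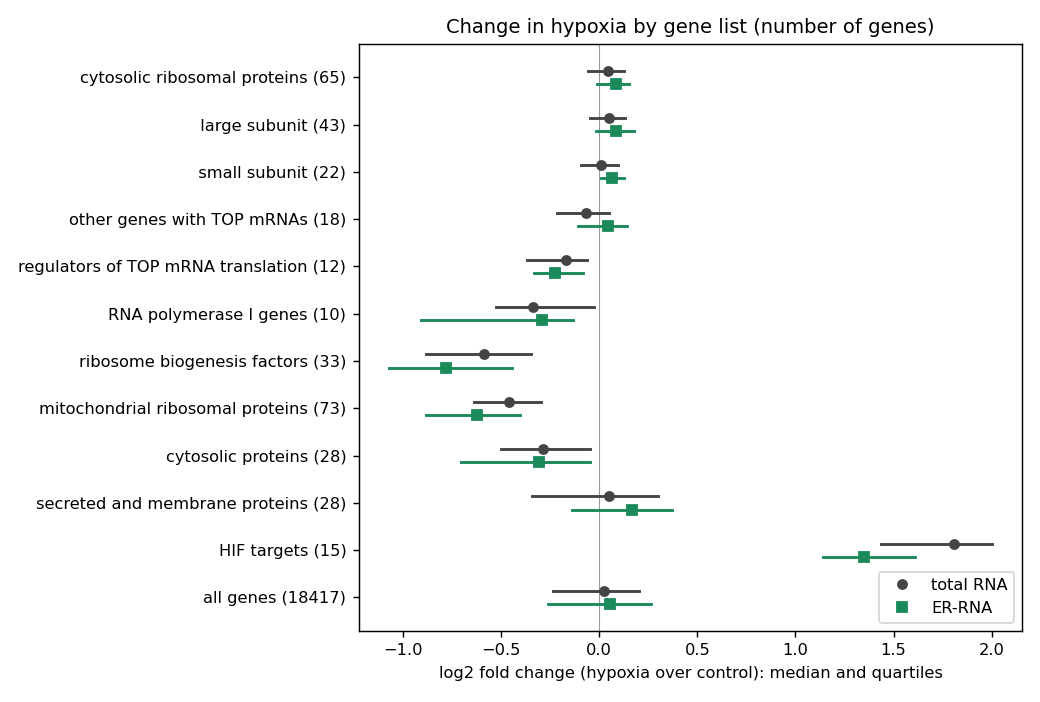
Log2 fold change, hypoxia over control (horizontal axis), as median (symbol) and quartiles (line) for each gene list, in total RNA (grey circles) and ER-RNA (green squares), with the number of genes in brackets. The cytosolic ribosomal proteins lie around 0 with medians of 0.043 and 0.085, the biogenesis factors at -0.59 and -0.78 and the HIF targets at 1.81 and 1.35.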

How the data were processed

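RNA of HT1080 cells was measured on 4 arrays, 1 per fraction and condition. The deposited values are log2 values that the authors normalized by RMA; the submitters' processing notes name Partek 6.4. The sources used here do not state if the 4 arrays went through normalization together. Of 33297 probe sets, 19460 name 1 gene in the platform annotation, 1754 several and 12083 none, and 47 that name a ribosomal protein gene with other genes were not used. Gene identifiers were matched to RefSeq for 19429 probe sets and all 65 members. Array coordinates were not used.

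Hypoxia was compared with control within each fraction by the methods' thresholds, applied to all probe sets (fold change over 1.4, z-score over 3, SD of each pair by loess in place of the methods' separate models for treatment and control, span 0.75, degree 2, 50% quantile filter), with R 4.3.3, limma 3.58.1, numpy 2.4.6, pandas 2.3.3 and scipy 1.17.1. The rule was tested on simulated data. ER-RNA was set against total RNA as a difference of log2 values, read against all genes. Medians and counts stand in for a test, since each group is 1 array.

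The members and gene lists were chosen with earlier results of these data known. Values on 4 arrays are given for called members and for the 4 highest and 4 lowest log2 fold changes among expressed members in each fraction. The same holds for the 3 highest and 3 lowest differences in change between fractions, and for the paralogues with their counterparts. RPL19, RPL7A, RPL5, RPL11, RPS3, RPS6 and RPL41 were also given in this way. Other genes named come from the lists, or were chosen after their values were seen. The alternatives covered scaling, expression filter, SD model, fold threshold, probe set per gene and the members counted. A median was taken as moved where it left the 95% order-statistic interval of the main median over the members, which describes spread between genes only.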

Additional observations from a re-analysis of the deposited data

How the results depend on the processing

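Scaling set the sign of the members' small median changes. The median came to -0.011 (total RNA) and -0.0034 (ER-RNA) after centring the changes of each pair on their median over all probe sets. It was 0.10 and 0.12 after quantile normalization, and 0.087 and 0.14 after loess within each pair. The excess of ER-RNA over total RNA moved to 0.83 in hypoxia and 0.82 in control under quantile normalization. Large minus small subunit turned to -0.0063 in ER-RNA under loess, to -0.020 in ER-RNA with the median over all probe sets, and to -0.035 (total RNA) and -0.034 (ER-RNA) with the probe set of the lowest mean. Restricting the members to the 31 with a mean under 12, a choice made after seeing the data, gave -0.097 in total RNA and -0.0021 in ER-RNA for that difference, a median change of 0.15 in ER-RNA and 0.11 for ER-RNA change minus total RNA change. Calls in total RNA numbered 1 in the main setting, 2 without an expression filter (RPL22 up, RPL22L1 down), 4 by fold change alone (1 up, 3 down), and 0 with the 75% quantile filter or without the paralogues; fold change alone gave 3 in ER-RNA, where 14 other settings gave 0. The cause of these differences was not tested, apart from the removal of RPL22L1 with the paralogues. No paired analysis was possible because each group is 1 array, and no array could be left out for the same reason.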
